A study of Mus musculus with 20 samples.

Results

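Podocytes were the smallest cell cluster of this single-cell RNA-seq study of mouse kidney repair. They are described here by their number in each library, by their share among 5 sets of cells and by their place in the cell maps. The members are all cells that the authors named Podo: 172 of 113579 cells (0.151%) in a first annotation of 18 libraries, and 278 of 136794 cells (0.203%) in a second annotation of 20 libraries. Whole kidneys of male C57BL/6 mice, 10 to 12 weeks old, were dissociated and 1 library was made per mouse. Control comprised 6 libraries. IRI short (bilateral ischemia and reperfusion injury with 23 min of clamping) and IRI long (30 min) comprised 6 libraries each, with 2 libraries at each of 1, 3 and 14 d after the injury. Only the second annotation holds the inhibitor libraries: 1 from a mouse given the pyroptosis inhibitor VX-765 (100 mg/kg) and 1 from a mouse given the ferroptosis inhibitor liproxstatin (10 mg/kg), each after 30 min of ischemia. Both drugs were injected shortly before the clamping and daily thereafter until 14 d. All mice but the controls thus had the same kind of injury, and the labels name no altered gene or reporter in any group.

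Podocytes are epithelial cells that wrap the capillaries of the glomerulus with interlocking foot processes. The slit diaphragm between these processes contains nephrin, encoded by Nphs1, and is the last layer of the filtration barrier. The capillaries themselves are lined by glomerular endothelial cells, named GEC in these data. Mature podocytes hardly divide, so their loss is counted as a cause of lasting glomerular damage. Renal ischemia is known mainly for injury of the proximal tubule (PT), above all its S3 segment, and the study set the milder against the more severe ischemia to separate adaptive from maladaptive repair. Sequenced cells report relative numbers: a podocyte share of all cells moves when podocytes change, and also when other cells enter or leave the suspension. The share was therefore set against several kinds of cells. The tables used hold cluster names, treatment groups and map coordinates but no expression values, so the name Podo was not checked against Nphs1.

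Few podocytes were captured per library. In control, the library norm5 held 19 podocytes among 6666 cells and Scl held 30 among 14320 cells. The other 4 control libraries held 0 to 2: 2 of 2272 cells in norm3, 1 of 3949 in norm1, 1 of 6609 in norm2, and 0 of 4056 in norm4, which allows a share of up to 0.074% when 3 counts are taken as the limit of a count of 0. Norm5 and Scl thus carried 49 of the 53 control podocytes. The names of the injured libraries, such as IRF2, are those of the cell barcodes and do not refer to genes. In IRI short the libraries held 12 of 9481 cells (IRF2) at 1 d, 15 of 2967 (IRF3) and 5 of 4086 (IRF11) at 3 d, and 5 of 4518 (IRF8) and 3 of 10917 (IRF10) at 14 d. In IRI long they held 23 of 7847 (IRF5) and 2 of 6103 (IRF1) cells at 1 d, 19 of 4784 (IRF4) and 5 of 2064 (IRF7) at 3 d, then 11 of 7229 (IRF9) and 10 of 7050 (IRF12) at 14 d. Podocytes were found in each of the 12 injured libraries and in 5 of the 6 control libraries. The sums were 53 podocytes for control, 49 for IRI short and 70 for IRI long.

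The share of podocytes ran from 0 to 0.285% of all cells in control, from 0.0275 to 0.506% after IRI short and from 0.0328 to 0.397% after IRI long. The exact 95% binomial (Clopper-Pearson) interval of norm5, the highest control library, was 0.172 to 0.445% and lay above the limit of 0.074% for norm4, although both libraries were made from uninjured kidneys. The interval of IRF3, the library with the highest share, was 0.283 to 0.832%, and that of IRF11 from the same group and day was 0.0397 to 0.285%, so both barely overlap. All such intervals cover counting error only. Among the 6 control libraries the standard deviation was 0.118 percentage points, compared with 0.0533 from counting error alone. Between the 2 libraries of an ischemia time and day it ran from 0.00730 (IRI long at 14 d, counting error 0.0454) to 0.271 (IRI short at 3 d, counting error 0.0905), so it was not wider than counting error in every group.

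**Figure D1:**
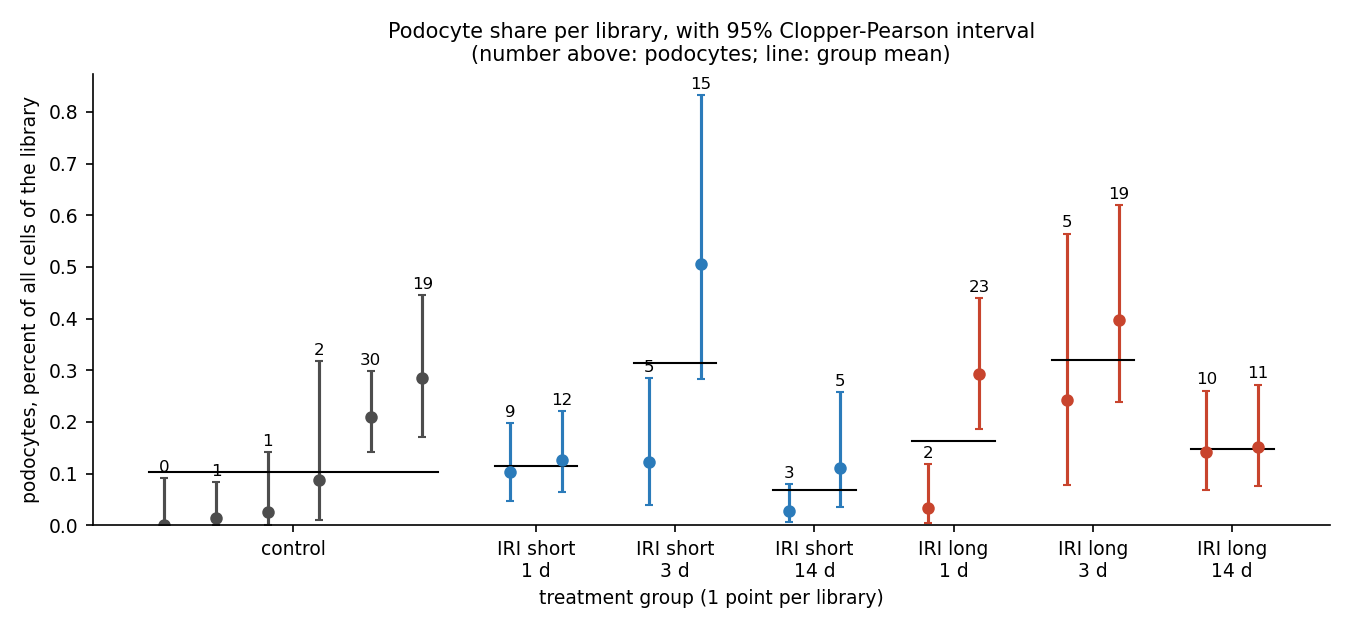
Podocytes as percent of all cells (vertical axis) in each of the 18 libraries of the first annotation, by treatment group (horizontal axis). Points are libraries with 95% Clopper-Pearson intervals, the number above each is its podocyte count and the black line is the group mean. The 6 control libraries spread from 0 to 0.285%, and IRI short at 3 d holds the highest library at 0.506%.

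Of the control libraries, 5 also differed from all other libraries in their cell barcodes. Norm1 to norm4 and Scl shared barcodes with each other at 0.977 to 1.67 per 1000000 pairs of cells, compared with 0.0746 to 0.529 among the other libraries and at most 0.123 between both sets. Norm5 belonged with the injured libraries by this measure. The 5 libraries had podocyte shares of 0 to 0.209% and norm5 one of 0.285%. The barcode set and the control group can hardly be told apart, since norm5 alone separates them, and values with norm5 as the only control are therefore given next to the results they change. Across all libraries of the first annotation 2 of 172 podocytes had a barcode that also occurred in another library, and no barcode was shared by a pair of podocytes.

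To find out whether injury changed podocyte abundance, the share of all cells was compared first. The mean was 0.104% ± 0.118 (SD, n = 6) in control, 0.166% ± 0.170 after IRI short and 0.210% ± 0.128 after IRI long. IRI short exceeded control by 0.0623 percentage points (exact permutation test over libraries, two-sided, p = 0.524, Benjamini-Hochberg adjusted p = 0.585), and without the library IRF3 the difference was -0.00564. IRI long exceeded control by 0.106 points (p = 0.162, adjusted p = 0.271, same exact permutation test), and its range overlapped that of control in all but 2 libraries. IRI long exceeded IRI short by 0.0438 points (libraries exchanged within each day, exact permutation p = 0.546, adjusted p = 0.585). All 3 differences were smaller than the SD between libraries. With norm5 as the only control the first and the second difference were -0.119 and -0.0752 points.

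The cells around the podocytes were of different kinds in the 3 groups. Immune cells made up 6.11 to 17.8% of cells in control libraries, 37.8 to 62.8% after IRI short and 41.7 to 80.6% after IRI long. PT cells made up a mean of 49.5% in control, compared with 11.3% after IRI short and 8.11% after IRI long. The same podocytes were therefore divided by 4 smaller sets of cells, which gave 15 tests with those above, adjusted together.

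Among non-immune cells podocytes made up 0.119% ± 0.139 (SD, n = 6) in control, 0.349% ± 0.371 after IRI short and 0.713% ± 0.439 after IRI long. The individual control libraries lay at 0, 0.0161, 0.0275, 0.101, 0.223 and 0.347%. In IRI long they lay at 0.0830 and 0.503% at 1 d, 0.809 and 1.43% at 3 d, and 0.726 and 0.730% at 14 d. All IRI long libraries except IRF1 thus lay above every control library. The difference of 0.594 points had p = 0.00866 before and p = 0.0568 after adjustment (exact permutation test), and it did not pass the threshold of 0.05. For IRI short against control the difference was 0.230 points (exact permutation p = 0.143, adjusted p = 0.268), and for IRI long against IRI short 0.364 points (p = 0.0648, adjusted p = 0.162, within days). With norm5 as the only control, IRI short and IRI long exceeded it by 0.00256 and 0.367 points.

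Relative to PT cells, the denominator that differed most between control and injury, podocytes made up 0.253% ± 0.353 (SD, n = 6) of podocytes and PT cells in control, 1.58% ± 1.17 after IRI short and 2.70% ± 1.81 after IRI long. The ratio of the means was 6.23 for IRI short and 10.7 for IRI long against control. Of the injured libraries, 4 of 6 in IRI short and 5 of 6 in IRI long exceeded all controls. The exact permutation test gave p = 0.0152 and p = 0.00433, with an adjusted p of 0.0568 for both. The 6 IRI long libraries ranged from 0.385% (IRF1) to 4.94% (IRF4), a range that overlaps those of control and IRI short. In IRI short they lay at 1.25 and 1.31% at 1 d, 2.58 and 3.33% at 3 d, then 0.157 and 0.847% at 14 d, while 5 of the 6 controls lay at or below 0.307% and norm5 at 0.930%. IRI long exceeded IRI short by 1.12 points (exact permutation within days, p = 0.0833, adjusted p = 0.179). With norm5 as the only control the differences were 0.649 points for IRI short and 1.77 points for IRI long.

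Other tubule cells, that is cells of the loop of Henle (LOH), distal convoluted tubule (DCT), and the principal (PC) and intercalated (IC) cells of the collecting duct, gave a mean podocyte share of 0.303% ± 0.357 (SD, n = 6) in control, 0.648% ± 0.794 after IRI short and 1.98% ± 1.34 after IRI long. Here IRI long differed from control by 1.67 points (exact permutation p = 0.0152, adjusted p = 0.0568) and from IRI short by 1.33 points (exact permutation within days, p = 0.0278, adjusted p = 0.0833). IRI short exceeded control by 0.345 points (p = 0.431, adjusted p = 0.585, exact permutation test). Against norm5 alone the differences were 1.41 points after the long and 0.0756 points after the short ischemia. These tubule cells made up a mean of 35.9% of all cells in control, 31.4% after IRI short and 13.9% after IRI long.

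Podocytes were also set against GEC, by their name the endothelial cells of the same capillary tuft, a name not checked against expression. This denominator shifted too: GEC made up a mean of 3.17% of all cells in control, 6.49% after IRI short and 6.58% after IRI long. Podocytes made up 4.29% ± 5.51 (SD, n = 6) of podocytes and GEC in control, 2.49% ± 2.37 after IRI short and 3.69% ± 2.19 after IRI long. The control libraries lay at 0, 0.467, 0.806, 2.15, 9.23 and 13.1% and enclosed all values of IRI short (0.417 to 7.14%) and IRI long (0.351 to 6.35%). Compared with control, IRI short differed by -1.80 points (exact permutation p = 0.524, adjusted p = 0.585) and IRI long by -0.602 points (p = 0.812, adjusted p = 0.812). IRI long exceeded IRI short by 1.20 points (p = 0.361, adjusted p = 0.542, exact permutation within days). With norm5 as the only control the differences were -10.6 points for IRI short and -9.41 points for IRI long. The ratio of podocytes to GEC was the measure in which injured kidneys lay below control in the mean, whereas they lay above it in the other 4. The sign for IRI long turned without norm5 (1.16 points), without Scl (0.385 points), without IRF1 (0.0659 points) and on the logit scale (0.355 in natural-log odds).

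None of the 15 tests passed an adjusted p of 0.05, and 5 had an unadjusted p below it (exact permutation tests). The smallest p that the design allows is 0.00216 for 6 against 6 libraries and 0.00926 within days. When only the 145 cells named Podo in both annotations were counted, IRI long passed against control per non-immune cell, per PT cell and per other tubule cell (adjusted p = 0.0433 in each, exact permutation test). Without IRF1, which held 2 podocytes, IRI long passed against control in the same 3 measures (adjusted p = 0.0162, 0.0162 and 0.0216) and against IRI short as well (adjusted p = 0.0397, 0.0278 and 0.0278, exact permutation tests). Without IRF10, which held 3 podocytes, IRI short passed against control per PT cell (1.61 points, adjusted p = 0.0325, exact permutation test). Each of these calls was the only 1 to pass among 12 fits that left out a library. The library left out was in each case the lowest of its group.

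**Figure D2:**
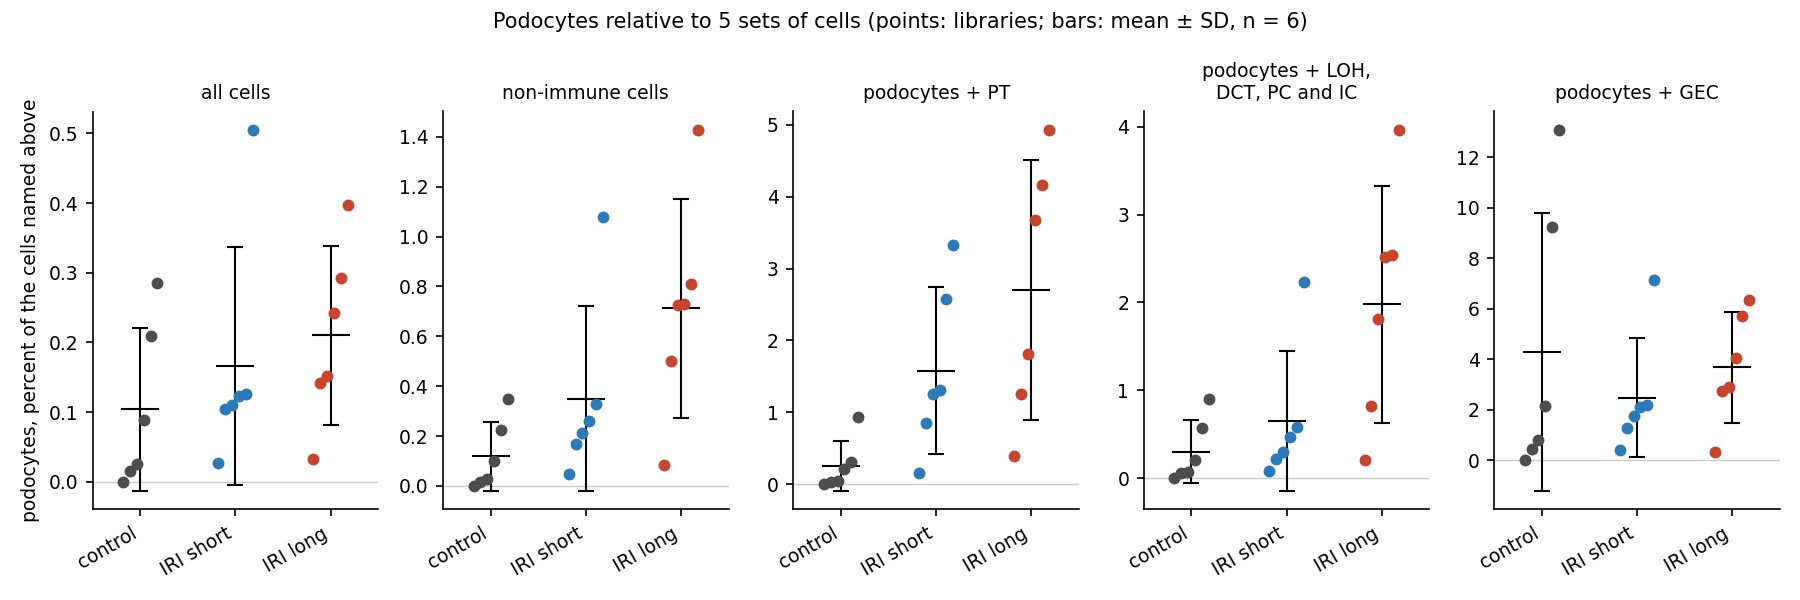
Podocytes as percent of 5 sets of cells (vertical axes, a scale for each panel) in control, IRI short and IRI long (horizontal axes), first annotation. Points are libraries and bars give the mean ± SD (n = 6). IRI long lies highest against non-immune, PT and other tubule cells, with means of 0.713, 2.70 and 1.98%, while against GEC the 6 control libraries span all other values.

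By day after injury, the mean podocyte share of all cells stood highest at 3 d after both ischemia times, whereas per podocyte and GEC it was 4.64% at 3 d and 4.88% at 14 d in IRI long. The mean share of all cells after IRI short was 0.115% on day 1, 0.314% on day 3 and 0.0691% on day 14. The corresponding means for IRI long were 0.163, 0.320 and 0.147%. At 3 d the libraries of one group lay as far apart as 0.122 and 0.506% (IRI short) and 0.242 and 0.397% (IRI long), so the IRI short mean at 3 d rested on IRF3, and the lower library was below IRF2 at 1 d (0.127%). At 1 d the IRI long libraries lay at 0.0328 and 0.293% and enclosed those of IRI short at 0.104 and 0.127%. At 14 d both IRI long libraries (0.142 and 0.152%) lay above both IRI short libraries (0.0275 and 0.111%), and the same held for the other 4 measures. By the second annotation this separation was lost for the share of all cells, where IRF8 of IRI short had 0.155% and the IRI long libraries 0.124 and 0.128%, and it remained in the other 4 measures. Per non-immune cell the means at 14 d were 0.728% for IRI long against 0.154% for IRI short, and per podocyte and GEC 4.88 and 1.27%. For the share of all cells, the limma test at 14 d did not pass (adjusted p = 0.564).

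For comparison with the other clusters, the fraction of each of the 18 clusters was fitted with limma on the logit scale, with 7 group means and 0.5 cells added. Against control, 66.7% of clusters passed after the short and 83.3% after the long ischemia, and 27.8% passed between the 2 ischemia times (limma, adjusted p below 0.05). Podocytes were not among them in any of these comparisons. The ratio of their odds to control was 1.95 for IRI short (95% interval 0.678 to 5.60, limma adjusted p = 0.241) and 2.75 for IRI long (0.959 to 7.91, adjusted p = 0.0662). Between IRI long and IRI short it was 1.41 (0.492 to 4.06, limma adjusted p = 0.643). The intervals include both no change and a several-fold increase. These calls depended on the denominator and on the controls. When immune clusters were taken per immune cell and all others per non-immune cell, podocytes passed in IRI short (1.24 in natural-log odds, limma adjusted p = 0.0239, with 83.3% of clusters passing) and in IRI long (2.09, adjusted p = 0.00078, with 77.8% passing). A term for the barcode set leaves norm5 alone to set the control mean. With it the estimates were -0.84 and -0.50. IRI long passed without Scl, norm5 or IRF1 (1.25, 1.32 and 1.34, limma adjusted p = 0.0225, 0.0176 and 0.0230).

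By day, podocytes passed in 1 of 6 comparisons with control. In IRI long at 3 d their odds rose by 1.63 ± 0.711 (SE) in natural-log units (limma adjusted p = 0.0380), where 88.9% of all clusters passed. A rise of podocytes thus stood among changes in nearly all clusters. It passed in 13 of 18 fits that left out 1 library and failed without norm1, norm2, norm4, IRF4 or IRF7, with the highest adjusted p of 0.186 without IRF4. With the barcode set as a term, and so against norm5 alone, the estimate was 0.119. As a centred log-ratio it was 0.387 (limma adjusted p = 0.645). With separate denominators for immune and other clusters it was 2.77, the highest of all alternatives, whose lowest adjusted p was 0.00168 (limma). In IRI short at 3 d the estimate was 1.41 (adjusted p = 0.0743, with 72.2% of clusters passing), and it passed without Scl (1.65, adjusted p = 0.0351) or norm5 (1.72, adjusted p = 0.0274). At 1 d podocytes were estimated at 0.62 in IRI short and 0.54 in IRI long (limma adjusted p = 0.472 and 0.549, with 55.6 and 61.1% of clusters passing). At 14 d the estimates were -0.03 and 0.87 (adjusted p = 0.962 and 0.251, with 55.6 and 72.2% passing).

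No difference in podocytes between IRI long and IRI short passed at a single day. In natural-log odds the estimates were -0.08 at 1 d, 0.22 at 3 d and 0.90 at 14 d (limma adjusted p = 0.946, 0.967 and 0.564). Of all clusters, 5.56% passed at 1 d, 0% at 3 d (3 clusters had an unadjusted p below 0.05) and 33.3% at 14 d. From 1 and 3 d to 14 d, the podocyte estimate was -1.05 in IRI short (95% interval -2.63 to 0.53, limma adjusted p = 0.450, with 11.1% of clusters passing) and -0.22 in IRI long (-1.80 to 1.37, adjusted p = 0.874, with 22.2% passing). The difference between both ischemia times in this course was not tested.

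**Figure D3:**
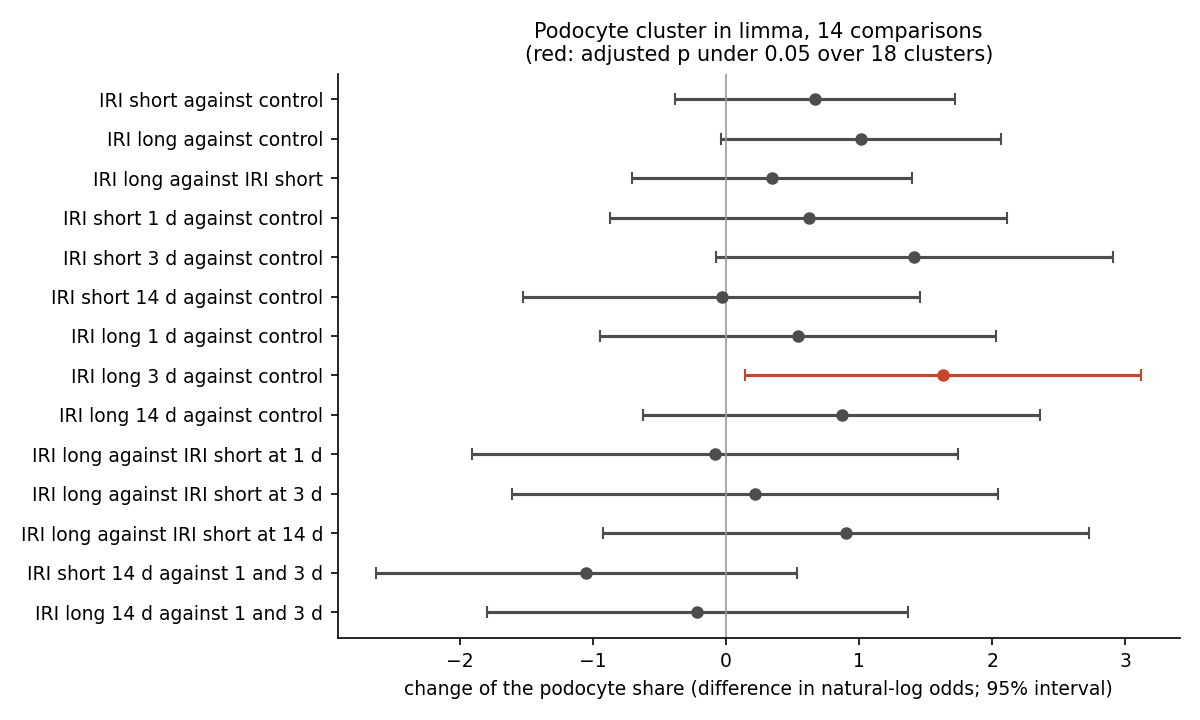
Change of the podocyte cluster in 14 comparisons with limma (points, difference in natural-log odds on the horizontal axis; bars, 95% intervals). IRI long at 3 d against control (1.63) is the comparison with an adjusted p below 0.05, and the other 13 intervals include 0.

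Podocytes varied more between libraries of one group than any other of the 18 clusters. Their residual standard deviation in the limma fit was 1.05 in natural-log odds, ahead of 0.961 for Granul_1, a granulocyte cluster of 10892 cells. With 172 cells podocytes were also the smallest cluster, and counting error is part of this spread. How large that part is was not tested. GEC, by their name cells of the same glomerulus, had the lowest of all at 0.295, with 5848 cells. The share of GEC among non-immune cells was 2.20 to 5.49% in control. The control library without podocytes was thus not a library without GEC: norm4 held 191 GEC, the highest GEC share of the controls. Whether all cells of this name were glomerular was not checked. Across the 6 control libraries the podocyte and GEC shares of non-immune cells ran in opposite directions (Pearson r = -0.73, exact permutation p = 0.107; Spearman rho = -0.77, p = 0.103), with r = -0.63 after leaving out the 2 libraries farthest from the median. In IRI short r was 0.21 (p = 0.564) and rho 0.77 (p = 0.103), and in IRI long r was -0.05 (p = 0.943) and rho 0.09 (p = 0.919), by exact permutation, and r without the 2 libraries farthest from the median was -0.01 and -0.21. The podocyte share of all cells and the number of cells in a library gave r = 0.54 in control, -0.66 after IRI short and -0.26 after IRI long (exact permutation p = 0.300, 0.0736 and 0.603). Without the 2 libraries farthest from the median these were 0.59, 0.01 and 0.97. The Spearman rho was 0.43, -0.66 and -0.09 (exact permutation p = 0.419, 0.175 and 0.919). None of the 6 relations passed after adjustment (lowest adjusted p = 0.321 for r and 0.308 for rho, permutation tests).

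The cell map, a UMAP in which near cells have similar transcriptomes, set most podocytes apart. Of the 172 podocytes, 149 (86.6%) formed a compact group, defined by at least 50% podocytes among their 30 nearest cells. It measured 0.274 by 0.398 units in a map of 29.2 by 30.1 units. Within these limits lay 155 cells, 6 of them from other clusters. The nearest cell beyond these limits, a cell of the cluster Myofib, was 4.09 units from the centre of the group. The remaining 23 podocytes lay inside the PT clusters, 22 of them mainly among cells named PT S3, the straight segment of the proximal tubule, and 1 among PT S1. Over all 172 cells the 30 nearest neighbours were podocytes in 83.4%, PT S3 in 12.5% and PT S1 in 4.03%. The definition of the compact group was chosen after the map was seen. By the methods of the paper, cluster names and map come from the same integrated data, so cells of one name tend to lie together.

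The podocytes among PT cells were spread over the treatment groups. They numbered 9 of 53 podocytes from control mice, 8 of 49 from IRI short and 6 of 70 from IRI long. Scl held 7 of those in control, and the other 2 were all podocytes of norm3. Norm5 had none. When only the 149 cells of the compact group were counted, the mean share of all cells was 0.0810% ± 0.117 (SD, n = 6) in control, 0.146% ± 0.164 after IRI short and 0.195% ± 0.124 after IRI long, and 4 of 6 control libraries then held a podocyte. Relative to GEC the compact group made up 3.60% ± 5.42, 2.20% ± 2.31 and 3.49% ± 2.19. The order of the groups was as with all podocytes.

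**Figure D4:**
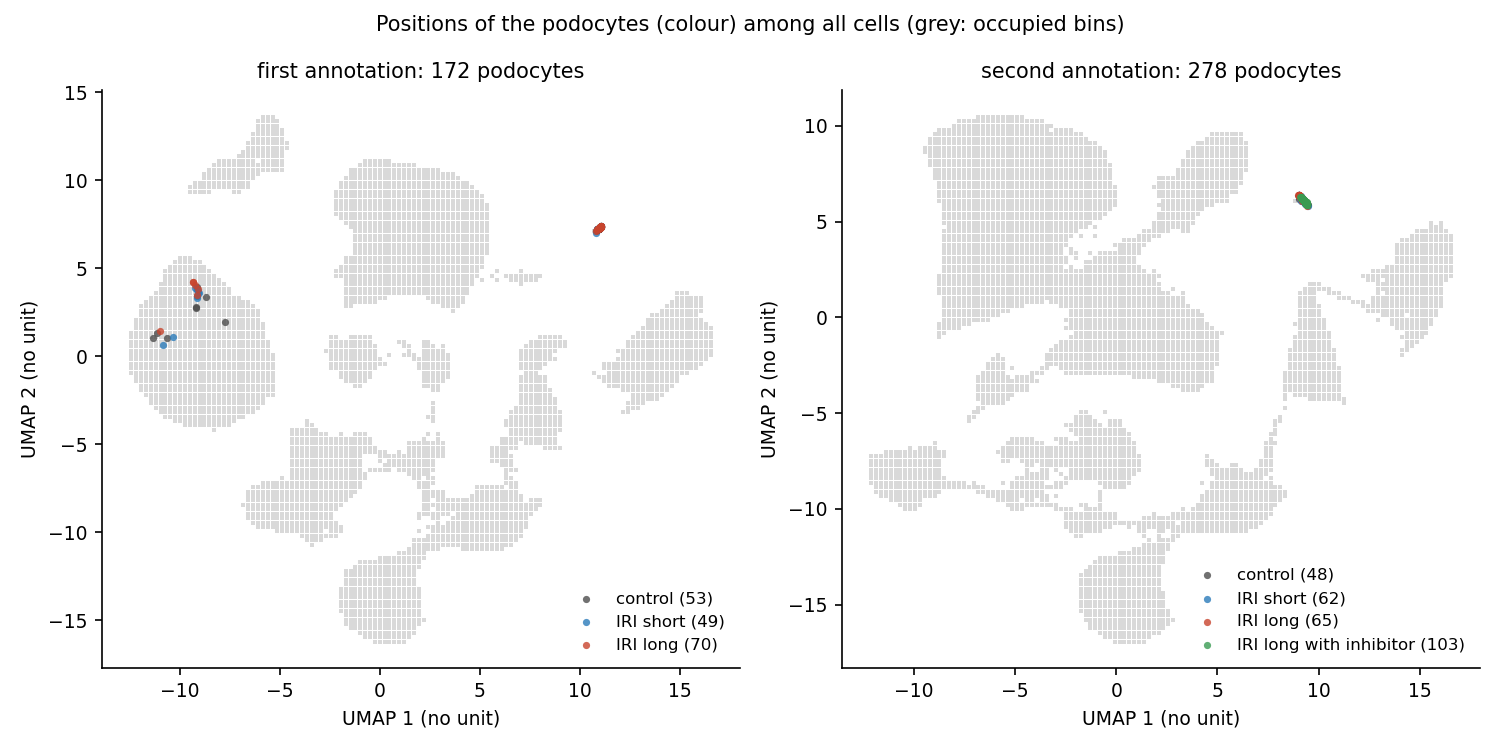
Positions of the podocytes in the UMAP of the first (left) and the second annotation (right), with UMAP 1 and UMAP 2 (no unit) as axes. Grey squares are map bins that hold any cell and coloured points are podocytes by treatment, with their number in the legend. In the first map 149 of 172 podocytes form one remote group and 23 lie within the PT cells, whereas all 278 lie together in the second.

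The second annotation, which includes the inhibitor libraries, placed all podocytes together. All 278 cells lay in one compact group, which is defined by the cluster names themselves, and 99.95% of their 30 nearest cells were podocytes. For the 18 libraries common to both, it named 175 podocytes, of which 145 had this name before. These are 84.3% of the podocytes of the first annotation and 82.9% of those of the second. The match was close to the middle of all clusters: podocytes ranked 9 of 18 by the share of cells that went to one cluster of the second annotation.

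The 27 cells that lost the name were nearly all renamed as tubule cells: 7 PT, 6 DCT1, 6 LOH, 5 PST and 1 PCT, with 1 each in Neutro_1 and SMC. Of the 23 podocytes that lay among PT cells in the first map 3 kept the name, compared with 142 of 149 in the compact group. The 30 cells that gained the name came mostly from PT S3 (9), PT S1 (7), Mono_1 (4) and T cell_2 (4). Of these gained podocytes 21 belonged to IRI short, 12 of them to IRF2, compared with 5 in control and 4 in IRI long. IRF2 went in this way from 12 to 21 podocytes, IRF7 from 5 to 9 and norm2 from 1 to 4, while Scl went from 30 to 23 and norm3 from 2 to 0. In IRI short 66.1% of the podocytes of the second annotation had the name already in the first, compared with 89.6% in control and 93.8% in IRI long. Named by the second annotation, podocytes per PT cell passed in both injured groups against control (differences of 1.06 and 2.07 points, adjusted p = 0.0487 each, exact permutation test). The PT cells of this annotation are a changed set, as they include 2588 of the 6396 cells named T cell_2 before.

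The inhibitor libraries held more podocytes than any other library of the second annotation, where the next highest count was 23. VX-765 held 62 podocytes among 10610 cells (0.584%, Clopper-Pearson 95% interval 0.448 to 0.748%) and liproxstatin 41 among 12605 cells (0.325%, interval 0.234 to 0.441%). These 103 cells were 37.1% of all podocytes of the second annotation, from libraries that held 23215 of its 136794 cells. Both IRI long libraries at 14 d, which the labels do not name as vehicle-treated, held 9 podocytes each, which was 0.128% of 7050 cells (interval 0.0584 to 0.242%) and 0.124% of 7229 cells (0.0569 to 0.236%). The interval of VX-765 lay above both, and that of liproxstatin overlapped the upper ends. The control libraries ranged from 0 to 0.285% in this annotation, and 3 libraries at 3 d without inhibitor lay above liproxstatin (IRF3 0.438%, IRF7 0.436% and IRF4 0.355%). With 1 library per inhibitor no test between treatments was possible, and an effect of a drug cannot be told apart from a difference between animals or library preparations.

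The other cells in these libraries differed as well. Immune clusters were 11.8% of cells with VX-765 and 5.13% with liproxstatin, against 64.5 and 75.2% in IRI long at 14 d, and PT cells were 58.8 and 82.6%. Among non-immune cells the podocyte share was 0.663% with VX-765 (interval 0.508 to 0.849%) and 0.343% with liproxstatin (0.247 to 0.466%), and both intervals overlapped those of IRI long at 14 d (0.359%, interval 0.164 to 0.680%; 0.525%, interval 0.240 to 0.994%). In this annotation 6574 of the 6984 cells named Mono_1 before carry the name Fibro and thus count as non-immune, while the cluster Ribos. is in neither class. Without Fibro the shares were 0.679 and 0.348% with the inhibitors and 0.482 and 0.731% in IRI long.

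Against the PT cells of this annotation, which include cells named T cell_2 before, the order of the shares turned. Podocytes were 0.984% of podocytes and PT cells with VX-765 (interval 0.755 to 1.26%) and 0.392% with liproxstatin (0.282 to 0.532%). Both shares lay below the 1.10% (0.503 to 2.07%) and 2.44% (1.12 to 4.58%) of IRI long at 14 d. The interval of VX-765 overlapped both, and that of liproxstatin overlapped the lower end of the lower IRI long library. Against other tubule cells podocytes were 2.59% (1.99 to 3.31%) with VX-765 and 3.40% (2.45 to 4.58%) with liproxstatin. These shares lay above the 1.31% (0.602 to 2.48%) and 1.38% (0.633 to 2.60%) of IRI long, but the intervals of both inhibitor libraries overlapped those of IRI long. Against glomerular cells the libraries stood far apart. The second annotation has GEC and other endothelium in one cluster, "GEC, Endo", and podocytes made up 12.5% of podocytes and this cluster with VX-765 (interval 9.74 to 15.8%) and 23.8% with liproxstatin (17.7 to 30.9%). In IRI long at 14 d they made up 2.84% (1.31 to 5.32%) and 4.52% (2.09 to 8.41%), and in control 0 to 12.5%. Liproxstatin lay above every library of control and IRI long at 14 d, in a library where "GEC, Endo" was 1.04% of cells. VX-765 was at the level of norm5, the highest control.

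**Figure D5:**
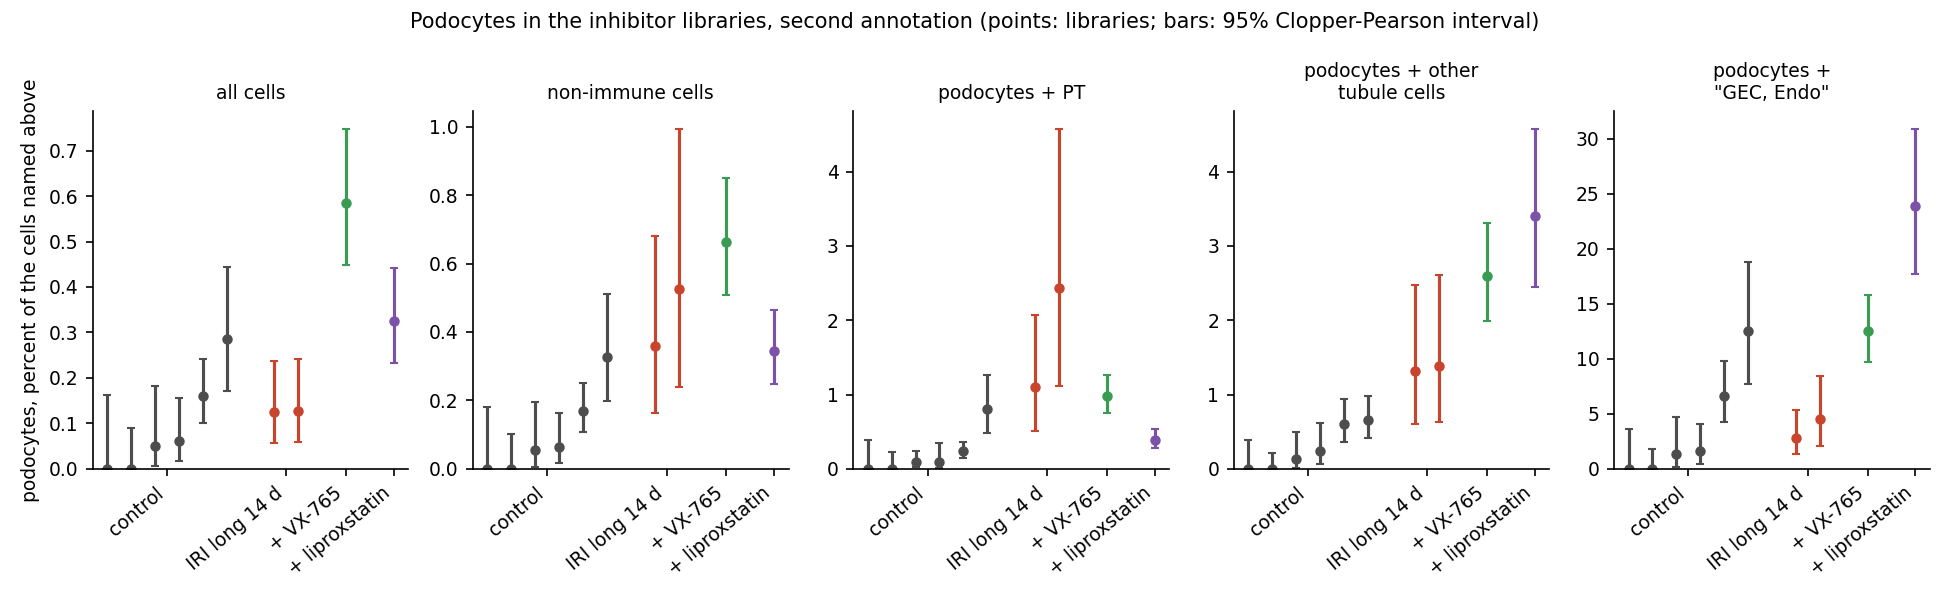
Podocytes as percent of 5 sets of cells (vertical axes, a scale for each panel) in the libraries of control, IRI long at 14 d, VX-765 and liproxstatin (horizontal axes), second annotation. Points are libraries and bars 95% Clopper-Pearson intervals for counting error. The points of the inhibitor libraries exceed both IRI long libraries per cell, per other tubule cell and per glomerular cell (23.8% with liproxstatin), but lie below both per PT cell. Intervals overlap in part, as for VX-765 per PT cell and per other tubule cell.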

How the data were processed

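The authors sequenced 10X 3′ libraries of whole kidney, aligned the reads with Cell Ranger to mm10 (GRCm38), filtered cells and doublets, and used LIGER for integration; clusters were named by hand, and Seurat is listed among the tools. They deposited, per cell, a cluster name, a treatment group and UMAP coordinates, which are scores without unit; no expression table was used here. For the second annotation the methods describe a dataset of another cell number. Depth is the number of cells per library, 2064 to 14320 in the first 18 libraries.

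Libraries were read from the shared start of the cell names and put in groups by their cells' treatment labels, not matched to a replicate number. The name of 1 IRI short library at 1 d is not reported here; the library is part of all group values and tests. Podocytes were counted per library and compared with two-sided exact permutation tests over libraries (for IRI long against short, libraries were exchanged within a day only), adjusted by Benjamini-Hochberg over 15 tests. Cluster fractions were fitted with limma 3.58.1 (R 4.3.3) with 0.5 cells added, tested on simulated data and adjusted over 18 clusters at 0.05. The simulated data had a smaller spread between libraries than podocytes and larger changes than their main estimates. They therefore do not show how the fit performs for podocytes. Other steps used scipy 1.17.1, pandas 2.3.3, numpy 2.4.6 and matplotlib 3.10.9 under python 3.11.15. A share at a count of 0 was limited by 3 counts.

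Clusters named in the text were, by rule, Podo, GEC, PT, LOH, DCT, PC and IC, up to 5 neighbours of podocytes in the UMAP and up to 5 clusters that exchanged cells with Podo. Granul_1, PCT, Neutro_1, SMC, Myofib, Fibro and Ribos. were named after their values were seen. The podocytes, cluster sets and tests were chosen with earlier results of these data known. Alternatives were the logit scale, the second annotation, podocytes named in both, pooling over cells, norm5 as the only control, permutation without days, and leaving out each library. For limma they were 0.1 or 1 cells added, the centred log-ratio, the arcsine square root and separate denominators for immune and other clusters. Further ones were weights by cell number and the barcode set as a term, which leaves norm5 alone to set the control mean. A filter of 10 cells in 2 libraries kept all 18 clusters and thus repeated the main fit. Added after seeing the data were the compact group, the non-immune share without Fibro, and these fits for IRI long at 3 d.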

Additional observations from a re-analysis of the deposited data

Results flagged for a closer look

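In 5 of 15 sets of 6 libraries, 1 library lay far from the others by Dixon's criterion. Chance alone meets it in about 1 of 20 sets if values are normally distributed, whereas these shares come from small counts and cannot fall below 0. The 15 sets are not independent, as they hold the same podocytes. In 4 of the 5 sets it was the same library, IRF3 of IRI short at 3 d, with 15 podocytes among 2967 cells. Its podocytes were 0.506% of all cells (next library 0.127%), 1.08% of non-immune cells (next 0.329%), 2.23% against other tubule cells (next 0.584%) and 7.14% against GEC (next 2.19%). The other library was norm5, in which podocytes made up 0.930% of podocytes and PT cells, compared with 0.307% in the next control. IRF3 kept 13 of its 15 podocytes in the second annotation and norm5 19 of 19. No difference between IRI long and IRI short passed an adjusted p of 0.05 with all libraries included (exact permutation tests and limma). Without IRF1, 3 of the 5 measures passed in the exact permutation test, with an adjusted p of 0.0397 for non-immune cells and 0.0278 for PT and for other tubule cells. In each of these measures this was the only 1 of 12 fits without a library that passed.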

How the results depend on the processing

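Counts of 0 to 30 podocytes in a library limit every comparison, and the control group rests on Scl and norm5. No paired analysis was possible because the library names carry no replicate number of the sample list. Differences between mean shares are in percentage points, limma values in natural-log odds, and the cause of each change of call below was not tested. Per PT cell, the second annotation gave 1.06 for IRI short and 2.07 for IRI long against control, and both passed. With podocytes named in both annotations, IRI long exceeded control by 0.546 per non-immune cell, 2.23 per PT cell and 1.56 per other tubule cell, and all 3 passed. With norm5 as the only control the untested differences per cell were -0.119 (IRI short) and -0.0752 (IRI long), and per glomerular cell -10.6 and -9.41. Per glomerular cell IRI long lay above control on the logit scale, by 0.355. Per glomerular cell the inhibitor libraries had 12.5% (VX-765) and 23.8% (liproxstatin) podocytes.

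In limma, podocytes passed against control when immune and other clusters had separate denominators (1.24 for IRI short, 2.09 for IRI long). The sign turned with the barcode set as a term, that is against norm5 alone (-0.84 and -0.50). For IRI short it also turned as a centred log-ratio (-0.43). IRI short at 14 d gave 0.27 with 0.1 cells added and 0.39 by the second annotation. IRI long at 3 d no longer passed with 0.1 cells added (1.99), the arcsine square root (0.030 on its own scale), the centred log-ratio (0.39) and weights by cell number (1.38). With the barcode set its estimate was 0.12, and with separate denominators it was 2.77, the highest of all alternatives.

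With each library left out in turn, IRI short minus control ran from -0.00564 to 0.0985 per cell and from 0.975 to 1.61 per PT cell, where it passed without IRF10. IRI long minus control ran from 0.451 to 0.720 per non-immune cell, 2.00 to 2.92 per PT cell, 1.28 to 2.03 per other tubule cell and -1.46 to 1.16 per glomerular cell. IRI long minus IRI short ran from 0.221 to 0.510 per non-immune cell, 0.679 to 1.59 per PT cell and 0.932 to 1.68 per other tubule cell. In limma, IRI long against control ran from 0.68 to 1.34 and passed without Scl, norm5 or IRF1 (adjusted p = 0.0225, 0.0176 and 0.0230). By day against control, IRI short ran from 0.73 to 2.09 at 3 d and -0.70 to 0.63 at 14 d, and IRI long from -0.46 to 1.54 at 1 d (negative without IRF5) and 1.30 to 1.93 at 3 d. IRI long against IRI short ran from -1.08 to 0.91 at 1 d and -0.46 to 0.90 at 3 d, and IRI long at 14 d against 1 and 3 d from -0.71 to 0.28. Of the 432 fits without a library, 402 kept the direction and the side of the threshold. Of the other alternatives, 117 of 141 were counted as unchanged, among them the filter that removed no cluster. Some of these were not tested, and for them the count does not show that the direction was kept. Pooled over cells, which was not tested, podocytes made up 0.140% in control, 0.121% after IRI short and 0.200% after IRI long. By pooling, IRI short thus lay below control, whereas its mean over libraries lay above.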
